A study of Mus musculus with 9 samples.

Results

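The enzymes that make and use arginine, citrulline and ornithine were followed in mouse small intestinal organoids, cultures of gut epithelium that hold stem cells and their differentiated progeny. The set holds 10 genes (Arg2, Otc, Cps1, Oat, Ass1, Asl, Nags, Abat, Odc1 and Aldh18a1). They were taken by symbol from the array annotation, which gave 20 probe sets among the 45101 of the array and 10 genes among the 18194 it names. A further probe set is annotated to both Ass1 and Gm5424 and is given apart. The 9 arrays came from organoids given a TgfbR1/2 inhibitor at 20 uM, organoids given the Tgfb1 ligand at 0.04 ng/mL, and organoids given no treatment, with 3 arrays in each group. Both agents were present continuously for 5 days from day 1, and all cultures were grown for 6 days. The sources used here do not name the mouse strain or age, the compound used as inhibitor, or a vehicle. Nothing in them says whether the 3 arrays of a group came from independent cultures, and every p-value below therefore rests on variation among arrays that could be technical alone.

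In the gut epithelium, glutamine and proline are turned into citrulline, which other organs convert to arginine. Within mitochondria, pyrroline-5-carboxylate synthase (Aldh18a1) makes the precursor that ornithine aminotransferase (Oat) converts to ornithine. Carbamoyl phosphate synthetase (Cps1), switched on by the product of N-acetylglutamate synthase (Nags), supplies carbamoyl phosphate, and ornithine transcarbamylase (Otc) joins it to ornithine to give citrulline. Argininosuccinate synthase (Ass1) and lyase (Asl) carry citrulline on to arginine. Arginase 2 (Arg2), the mitochondrial arginase, splits arginine into ornithine and urea, and ornithine decarboxylase (Odc1) opens the route from ornithine to the polyamines. Abat is the mitochondrial transaminase that breaks down the amino acid GABA.

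Values below are signals, the linear brightness that the MAS5 method gives each probe set. Signals of different probe sets are not compared with each other. Changes are differences of log2(signal + 16) from limma, given as estimate ± SE, and a gene is said to have risen or fallen where its p adjusted over all 12941 tested genes was under 0.05. All 10 genes had a probe set above the filter on low signals, whose level was 25.9 to 32.0 on the 9 arrays, and 19 of their 20 probe sets passed it. The exception was a second Abat probe set, which stayed under that level on all 9 arrays.

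The 10 genes were chosen with earlier results of these data known. Their counts and ranks among all genes are therefore descriptions, and cannot show that the set responds more than other genes. With the ligand 4 of the 10 fell (Arg2, Abat, Otc and Nags) and 0 rose, where 24.1% of all genes were called, 9.37% lower and 14.8% higher. At an unadjusted p under 0.05 the limma counts were also 4 lower and 0 higher. With the inhibitor 2 of the 10 fell (Cps1 and Oat) and 1 rose (Asl), where 45.1% of all genes were called, 23.9% lower and 21.2% higher, so the inhibitor's count was no larger than that background. The comparison of ligand with inhibitor also tests whether a gene's responses to both treatments differ, since the untreated arrays cancel. There 5 of the 10 were lower with the ligand (Arg2, Abat, Otc, Nags and Asl) and 2 were higher (Cps1 and Oat), where 55.5% of all genes were called, 23% lower and 32.6% higher. In 7 of the 10 the ligand and inhibitor arrays did not overlap, as in 60.6% of all genes. The median log2 change of the 10 genes was -0.12 for ligand against untreated, where the median of all genes was 0.05. It was -0.06 for inhibitor against untreated, where that of all genes was -0.01. These comparisons share the untreated arrays, so the changes are set side by side and not correlated.

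**Figure D1:**
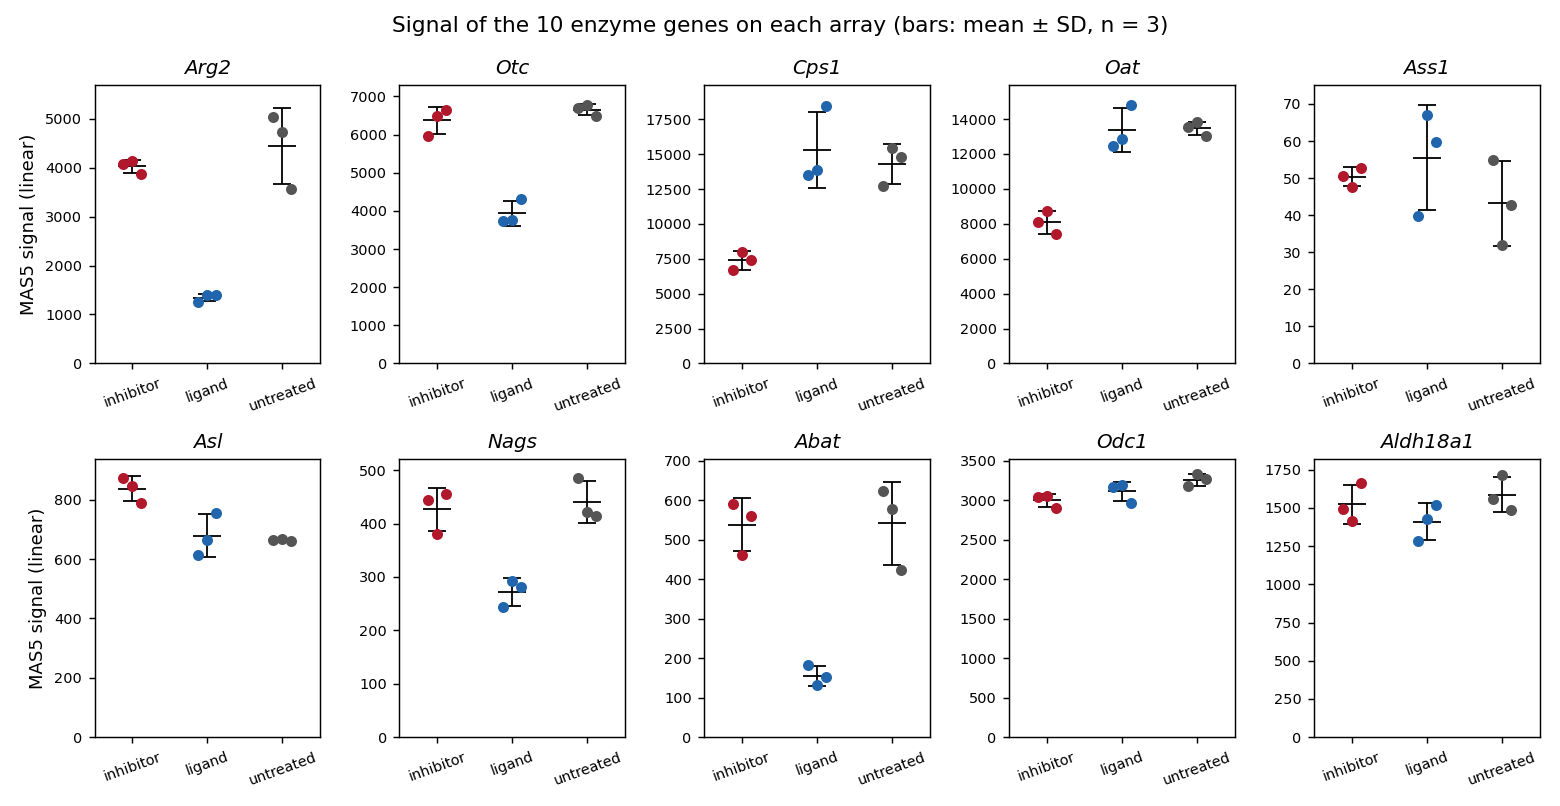
Signal of each of the 10 genes on every array (linear axis from 0, its own scale per gene), with points for arrays and bars for the mean ± SD of 3 arrays. Arg2 lies between 1255 and 1391 on the ligand arrays, under all other arrays, while Cps1 lies between 6703 and 7998 on the inhibitor arrays, under all other arrays.

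Promoter sequence was looked up for the genes that fell. RefSeq's table (build GRCm38.p6) held 6 of the 10 genes, and of those that fell it held Otc, Nags and Oat. The 250 bases before the transcript start of each are shown because Otc and Nags fell with the ligand and Oat with the inhibitor, so both patterns can be set beside their sequence. Capitals mark matches, on either strand, to a motif of Smad proteins, which carry the TGF-beta signal (CAGAC). Otc spans chrX:10252055-10252304 on the plus strand, Nags chr11:102145263-102145512 on the plus strand and Oat chr7:132576399-132576648 on the minus strand.
Otc: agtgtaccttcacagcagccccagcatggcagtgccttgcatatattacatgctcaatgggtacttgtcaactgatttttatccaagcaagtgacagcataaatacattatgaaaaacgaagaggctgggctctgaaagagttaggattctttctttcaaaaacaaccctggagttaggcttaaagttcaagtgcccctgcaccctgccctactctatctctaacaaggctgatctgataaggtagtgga
Nags: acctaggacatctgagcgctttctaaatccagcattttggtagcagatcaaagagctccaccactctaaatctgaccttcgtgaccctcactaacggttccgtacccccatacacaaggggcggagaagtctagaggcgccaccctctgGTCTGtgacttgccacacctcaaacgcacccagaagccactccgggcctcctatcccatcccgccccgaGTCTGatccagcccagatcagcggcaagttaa
Oat: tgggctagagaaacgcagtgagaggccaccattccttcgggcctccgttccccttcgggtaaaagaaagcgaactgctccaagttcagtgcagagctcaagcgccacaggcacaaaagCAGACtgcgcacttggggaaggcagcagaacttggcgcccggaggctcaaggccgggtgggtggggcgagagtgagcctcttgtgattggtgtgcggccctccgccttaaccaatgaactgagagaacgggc

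Nags held the Smad motif at 2 places on the opposite strand, Oat at 1 place and Otc at 0, and 42.2% of the 32851 promoters in the table hold it in the same 250 bases. Of the genes not called in any comparison, Aldh18a1 held it at 2 places, and Ass1 and Odc1 at 0. None of Otc, Nags and Oat held the E-box CACGTG (6.02% of all promoters), the HNF4 motif AAAGTCCA (1.01%), the CDX motif TTTATNG (9.81%) or the TATA box TATAAA (12.4%), all searched on both strands. Ass1 and Aldh18a1 held the E-box at 1 place each. A match is a run of letters and says nothing of binding.

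Arg2 and Abat had the larger falls with the ligand. The Arg2 signal was 1255, 1391 and 1390.18 on the ligand arrays, against 5037, 4724 and 3569.76 on the untreated arrays. Every ligand array lay under every untreated array. The log2 change was -1.70 ± 0.11 (adjusted p 6.6e-07), a fold of 0.308, and it ranked 7 among 12941 genes ordered from the largest fall. On the inhibitor arrays Arg2 read 4077, 4125 and 3876, inside the range of the untreated arrays, with a change of -0.13 ± 0.11 (adjusted p 0.365, 95% interval -0.36 to 0.10). That value leaned on 1 array: untreated replicate 3 was the lowest of its group, and without it the change was -0.28 and was called (adjusted p 0.0156). The difference between the responses, ligand against inhibitor, was -1.57 ± 0.11 (adjusted p 5.2e-08). A second Arg2 probe set gave -1.81 ± 0.12 for ligand against untreated (adjusted p 1.6e-06 over all 23888 probe sets tested, of which 6.77% were lower) and -0.03 ± 0.12 for inhibitor against untreated (adjusted p 0.884).

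Abat, the GABA transaminase, had signals of 182.1, 132.1 and 153.5 with the ligand, against 624.1, 576.9 and 424.0 without treatment. The groups did not overlap, as in 38.6% of all genes in that comparison. Its change of -1.69 ± 0.15 (adjusted p 4.2e-06) ranked 8, next to Arg2. With the inhibitor Abat read 591.5, 462.8 and 561.3, with a change of 0.00 ± 0.15 against untreated (adjusted p 0.99, 95% interval -0.31 to 0.32). Untreated replicate 3 was again the lowest array of its group, and leaving out single arrays moved this uncalled value between -0.16 and 0.11.

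Otc, which makes citrulline, had signals of 3740, 3753 and 4319 on ligand arrays, against 6692, 6772 and 6497 on untreated arrays. The groups stood apart, with a change of -0.76 ± 0.08 (adjusted p 1.8e-05) and a fold of 0.591. The inhibitor arrays read 5976, 6499.9 and 6636, and their change of -0.06 ± 0.08 did not pass (adjusted p 0.55, 95% interval -0.23 to 0.11). Both other Otc probe sets also fell with the ligand, by 1.06 ± 0.13 and 0.72 ± 0.16 on the log2 scale. They differed over the inhibitor, where 37.8% of all probe sets were called. The dimmest, with mean signals of 56.6 in inhibitor and 92.5 in untreated arrays, fell by 0.57 ± 0.16 (adjusted p 0.0119), while the third changed by 0.15 ± 0.13 (adjusted p 0.409). The inhibitor's effect on Otc is therefore uncertain.

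Nags makes the activator of Cps1. It read 243.3, 291.8 and 281.4 with the ligand, against 484.5, 421.4 and 413.4 without treatment, so the groups did not overlap. Its change was -0.66 ± 0.10 (adjusted p 0.00037), a fold of 0.632. In inhibitor arrays it read 443.2, 381.3 and 455.6, with a change of -0.04 ± 0.10 (adjusted p 0.763, 95% interval -0.26 to 0.17). Ligand against inhibitor gave -0.62 ± 0.10 for Nags (adjusted p 0.00014) and -0.69 ± 0.08 for Otc (adjusted p 5.8e-06), so the responses of both genes to the treatments differed.

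Cps1, whose product Nags serves, followed the other pattern. Its signal was 6703, 7998 and 7446 on the inhibitor arrays, against 12684.7, 15435.9 and 14810.9 on the untreated arrays. All inhibitor arrays lay under all untreated arrays, as 1 of the 4 members without overlap in a comparison where 55.9% of all genes had none. The change was -0.95 ± 0.12 (adjusted p 3.6e-05), a fold of 0.517. With the ligand Cps1 read 13528, 13883.6 and 18426, with a change of 0.08 ± 0.12 against untreated (adjusted p 0.678, 95% interval -0.18 to 0.35). Ligand replicate 3 was the highest, and the uncalled change was -0.06 without it. Cps1 was 2.05-fold higher with the ligand than with the inhibitor (adjusted p 9.6e-06).

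Oat, which supplies ornithine, read 8117, 8718 and 7411 with the inhibitor, against 13540.9, 13813.9 and 13056.4 without treatment. These ranges did not touch, and the change was -0.74 ± 0.09 (adjusted p 2.6e-05), a fold of 0.599. On ligand arrays it read 12458.8, 12868.4 and 14823, on both sides of the untreated values, with a change of -0.01 ± 0.09 (adjusted p 0.938, 95% interval -0.21 to 0.19). Ligand against inhibitor gave 0.73 ± 0.09 (adjusted p 1.7e-05). Within the mitochondrial steps to citrulline, Cps1 and Oat thus fell with the inhibitor and Otc and Nags with the ligand, and for each of the 4 the direct comparison of the treatments was called.

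**Figure D2:**
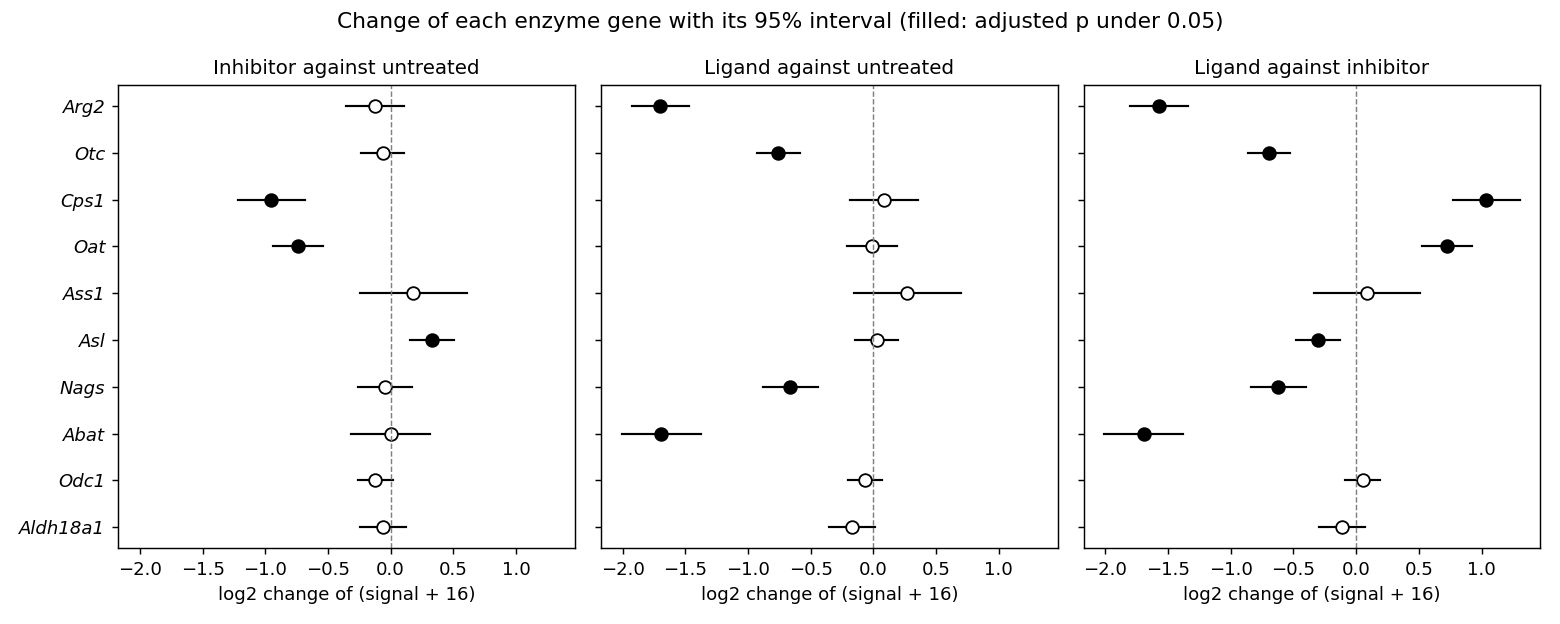
Log2 change of (signal + 16) of each gene with its 95% interval, for each treatment against untreated and for ligand against inhibitor, filled where the adjusted p was under 0.05. Arg2, Abat, Otc and Nags lie at -1.70 to -0.66 for ligand against untreated, and Cps1 and Oat at -0.95 and -0.74 for inhibitor against untreated.

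Of the steps from citrulline to arginine, Asl, the lyase, read 874.7, 846.0 and 790.5 with the inhibitor, against 663.1, 666.6 and 660.5 without treatment. The groups did not overlap, and the rise was 0.33 ± 0.08 (adjusted p 0.0047), a fold of 1.25. With the ligand it read 614.6, 662.7 and 756.7, around the untreated values, with a change of 0.03 ± 0.08 (adjusted p 0.856, 95% interval -0.15 to 0.20). Ligand against inhibitor gave -0.30 ± 0.08 for Asl (adjusted p 0.0059).

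Ass1, the synthase, was dim on the probe set that reads it alone. It read 50.6, 47.7 and 52.8 with the inhibitor, 39.7, 67.1 and 59.7 with the ligand, and 54.9, 32.0 and 42.7 without treatment. The 3 groups overlapped, and none of the comparisons was called (adjusted p 0.36 to 0.733). The 95% interval was wide, from -0.15 to 0.70 for ligand against untreated and from -0.24 to 0.61 for inhibitor against untreated. The brighter probe set annotated to both Ass1 and Gm5424 had mean signals of 145.9 ± 13.4 with the inhibitor, 191.0 ± 7.2 with the ligand and 161.9 ± 19.9 without treatment (SD, n = 3 each). Tested in a fit that kept such shared probe sets, an alternative added after the data were seen, it was higher with the ligand than with the inhibitor by 0.36 ± 0.11 (adjusted p 0.0197), in a comparison where 29.5% of the probe sets of 1 gene were higher. It was not called for ligand against untreated (adjusted p 0.212) or inhibitor against untreated (adjusted p 0.394), and its signal cannot be assigned to 1 of its genes.

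Odc1 and Aldh18a1, the entries to the polyamines and to ornithine and proline synthesis, were not called in any of the 3 comparisons. Odc1 read 3046.7, 3052.3 and 2899.7 with the inhibitor, 3172, 3197 and 2969 with the ligand, and 3185, 3336 and 3265 without treatment. Every inhibitor array lay below every untreated array, but the change of -0.12 ± 0.06 did not pass (adjusted p 0.146, 95% interval -0.26 to 0.02). It did pass with quantile normalization, at -0.16 (adjusted p 0.0347). For ligand against untreated it was -0.07 ± 0.06 (95% interval -0.21 to 0.07). Aldh18a1 read 1494, 1412 and 1660.13 with the inhibitor, 1280.11, 1425 and 1520.11 with the ligand, and 1556, 1712 and 1488 without treatment, with all 3 groups overlapping. Its changes were -0.06 ± 0.09 for inhibitor against untreated (95% interval -0.24 to 0.12) and -0.17 ± 0.09 for ligand against untreated (95% interval -0.35 to 0.01). None of the 3 Odc1 or 5 Aldh18a1 probe sets was called in any comparison with limma, also in ligand against inhibitor, where 49.4% of all probe sets were called. The 5 Aldh18a1 probe sets lay at -0.22 to -0.14 for ligand against untreated and at -0.12 to -0.06 for inhibitor against untreated. On those at -0.14 and -0.18 every ligand array lay under every untreated array, as the groups did not overlap in 38.6% of all genes.

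**Figure D3:**
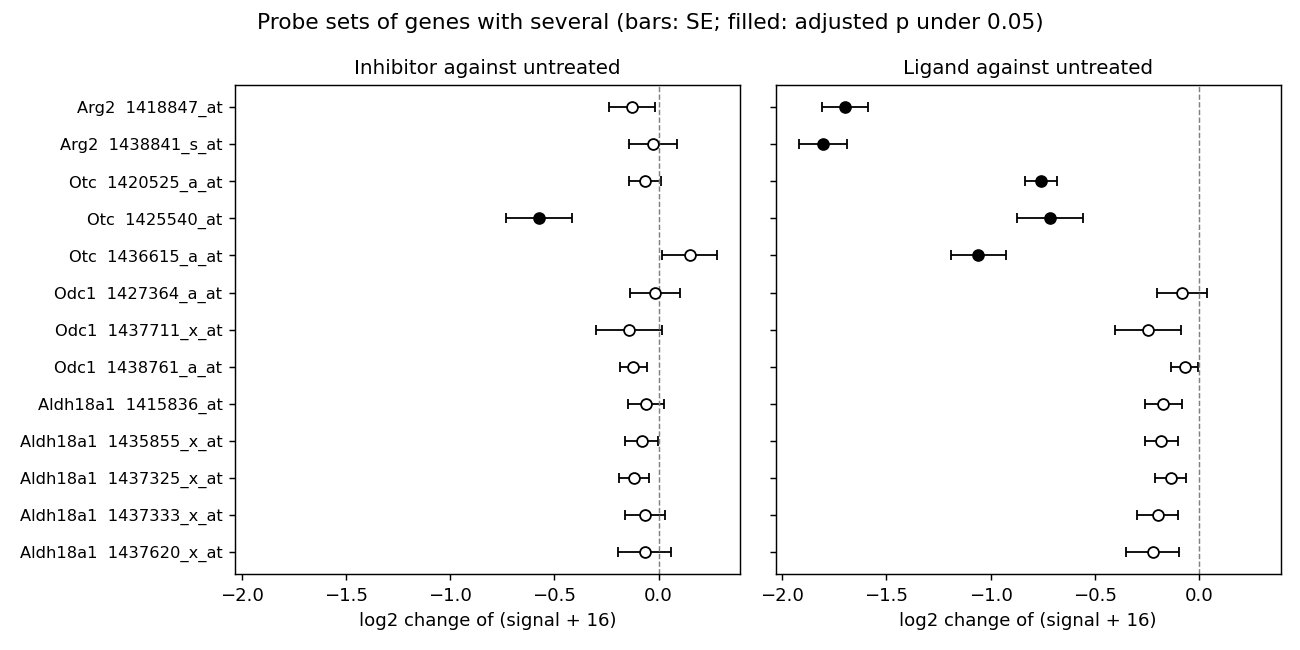
Log2 change of (signal + 16) ± SE of every tested probe set of Arg2, Otc, Odc1 and Aldh18a1 for inhibitor against untreated and ligand against untreated, filled where the adjusted p over 23888 probe sets was under 0.05. All Arg2 and Otc probe sets lie below 0 for the ligand, at -1.81 to -0.72, while those of Otc spread from -0.57 to 0.15 for the inhibitor.

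Other genes that handle the same metabolites came from lists of general knowledge, drawn up with results of these data known. Of 10 tested transporters 4 fell and 0 rose with the ligand with limma, 6 and 1 at an unadjusted p under 0.05, and 5 rose and 3 fell with the inhibitor. Over all genes 9.37% fell and 14.8% rose with the ligand, and 21.2% rose and 23.9% fell with the inhibitor. Without ligand replicate 1 the count of transporters that rose with the ligand was 1. Slc3a1 and Slc7a9 form the apical carrier that takes up cystine and basic amino acids, arginine among them. Slc3a1 averaged 935.7 ± 83.8 with the ligand, against 1732 ± 130 without treatment, a change of -0.88 ± 0.08 (adjusted p 5.8e-06). With the inhibitor Slc3a1 averaged 4604 ± 160 and rose by 1.40 ± 0.08 (adjusted p 3e-08). Its partner Slc7a9 changed by -0.87 ± 0.10 with the ligand (adjusted p 4.1e-05) and 0.78 ± 0.10 with the inhibitor (adjusted p 3.3e-05). Both thus moved in opposite directions under the treatments.

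Slc25a15, the mitochondrial ornithine carrier that works beside Otc, averaged 4478 ± 138 with the ligand, against 5981 ± 254 without treatment, a change of -0.42 ± 0.08 (adjusted p 0.0014). With the inhibitor its change was -0.14 ± 0.08 (adjusted p 0.166). Slc25a12, a mitochondrial aspartate and glutamate carrier, fell by 0.63 ± 0.07 with the ligand and rose by 0.60 ± 0.07 with the inhibitor, and both calls were lost with the mean of its probe sets (-0.17, adjusted p 0.191, and 0.19, adjusted p 0.1). The others that rose with the inhibitor were Slc7a7 (0.55) and Slc3a2 (0.29), subunits of the basolateral carrier of basic amino acids. Those that fell with it were the cationic amino acid transporters Slc7a2 (-1.51 ± 0.13) and Slc7a1 (-0.59) and the carrier Slc25a13 (-0.28, adjusted p 0.0445). Slc7a2 stayed called under all 19 alternatives, but its change ran from -1.67 to -0.66. For Slc25a13 the inhibitor and untreated arrays overlapped. Leaving out single arrays gave 2 to 3 transporters that fell with the inhibitor.

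Of 9 tested genes that use arginine or its relatives, 2 rose and 1 fell with the ligand, where 24.1% of all genes were called. With the inhibitor 4 rose and 2 fell, where 45.1% of all genes were called. The 2 that rose with the ligand include Arg1, the cytosolic arginase. Its signal averaged 56.7 ± 5.7 with the ligand and 9.9 ± 6.7 with the inhibitor, against 20.8 ± 4.9 without treatment. The inhibitor and untreated means lie under the filter level, so Arg1 passed the filter through the ligand arrays, where it is high. Its change of 0.99 ± 0.23 (adjusted p 0.007) is given as a description. The count of 2 that rose includes Arg1 and is likewise a description, not to be weighed against the share of all genes. Ddah2, which breaks down methylated arginine, rose by 0.87 ± 0.13 with the ligand. Gamt, an enzyme of creatine synthesis, changed by -0.44 ± 0.09 with the ligand (adjusted p 0.0037) and by 1.48 ± 0.09 with the inhibitor (adjusted p 6.4e-08). Agmat, named as agmatinase, fell with the inhibitor to 645.0 ± 38.9, against 1809 ± 166 without treatment, a change of -1.46 ± 0.08 (adjusted p 2.6e-08). Prmt1, an arginine methyltransferase, fell by 0.62 ± 0.11. Ddah1 (0.60 ± 0.07), Nos3 (0.38) and Gatm (0.79, adjusted p 0.0195, from an untreated mean signal of 20.5, under the filter level) rose with the inhibitor. Gatm averaged 46.0 with the inhibitor and 33.7 with the ligand, so it passed the filter mainly through treated arrays. Its rise, and the count of 4 that includes it, are descriptions too.

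Among 11 tested polyamine genes 2 rose and 1 fell with the ligand, where 24.1% of all genes were called. With the inhibitor 4 rose and 2 fell, where 45.1% of all genes were called. Smox, spermine oxidase, rose with the ligand by 0.78 ± 0.12 (adjusted p 0.00032) and with the inhibitor by 0.88 ± 0.12 (adjusted p 4e-05). Oaz2, an antizyme that restrains ornithine decarboxylase, rose by 0.30 ± 0.08 with the ligand (adjusted p 0.0138, but 0.0938 with the mean of its probe sets and 0.0989 with median centring) and by 0.57 ± 0.08 with the inhibitor. Without untreated replicate 2 this ligand call of Oaz2 was lost (adjusted p 0.0571), and the count that rose was 1. Dohh, which hydroxylates the deoxyhypusine residue of the translation factor eIF5A, fell by 0.25 ± 0.08 with the ligand (adjusted p 0.0395), a call lost without any single untreated array, any single ligand array or inhibitor replicate 2 (0.0541 to 0.108). It was also lost with the mean of its probe sets, where the change was -0.12 (adjusted p 0.413), with the replicate block (0.0613) and with only the 2 groups compared (0.0562). Srm, spermidine synthase, fell by 0.57 ± 0.08 with the inhibitor, as did the transporter Atp13a3 by 0.58 ± 0.09. Azin1 (0.44 ± 0.07) and Sat1, the spermidine and spermine acetyltransferase (0.37 ± 0.09), rose with it.

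Of the glutamate and GABA genes 11 were tested, of which 3 fell and 1 rose with the ligand, where 24.1% of all genes were called. With the inhibitor 6 fell and 2 rose, where 45.1% of all genes were called. Got1, the cytosolic aspartate aminotransferase, averaged 775.3 ± 20.1 with the ligand, against 1293 ± 99.5 without treatment, a change of -0.72 ± 0.08 (adjusted p 2.3e-05). Gpt, alanine aminotransferase, changed by -0.67 ± 0.09 with the ligand and 0.72 ± 0.09 with the inhibitor. Glul, glutamine synthetase, went the other way, at 0.53 ± 0.11 with the ligand and -0.73 ± 0.11 with the inhibitor. Aldh5a1, which acts on the product of Abat, fell by 0.81 ± 0.08 with the inhibitor (adjusted p 3.3e-06), while its change with the ligand was 0.06 ± 0.08 (adjusted p 0.657). Aldh9a1, an aldehyde dehydrogenase that can make GABA, fell by 0.27 ± 0.09 with the ligand (adjusted p 0.0473), a call lost without any single untreated array, ligand replicate 1, ligand replicate 2 or inhibitor replicate 2 (0.0585 to 0.139). The Aldh9a1 call was also lost with no filter (0.0810) and with no intensity trend (0.0813). Cad, which makes the carbamoyl phosphate for pyrimidines, fell by 0.67 ± 0.09 with the inhibitor. Glud1, glutamate dehydrogenase, rose with the inhibitor by 0.28 ± 0.09, and without untreated replicate 2, untreated replicate 3 or inhibitor replicate 2 the count that rose was 1. Of the proline genes Prodh, proline dehydrogenase, was tested alone. It averaged 59.4 ± 12.3 with the inhibitor, against 189.6 ± 10.9 without treatment, a change of -1.46 ± 0.13 (adjusted p 1.2e-06).

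**Figure D4:**
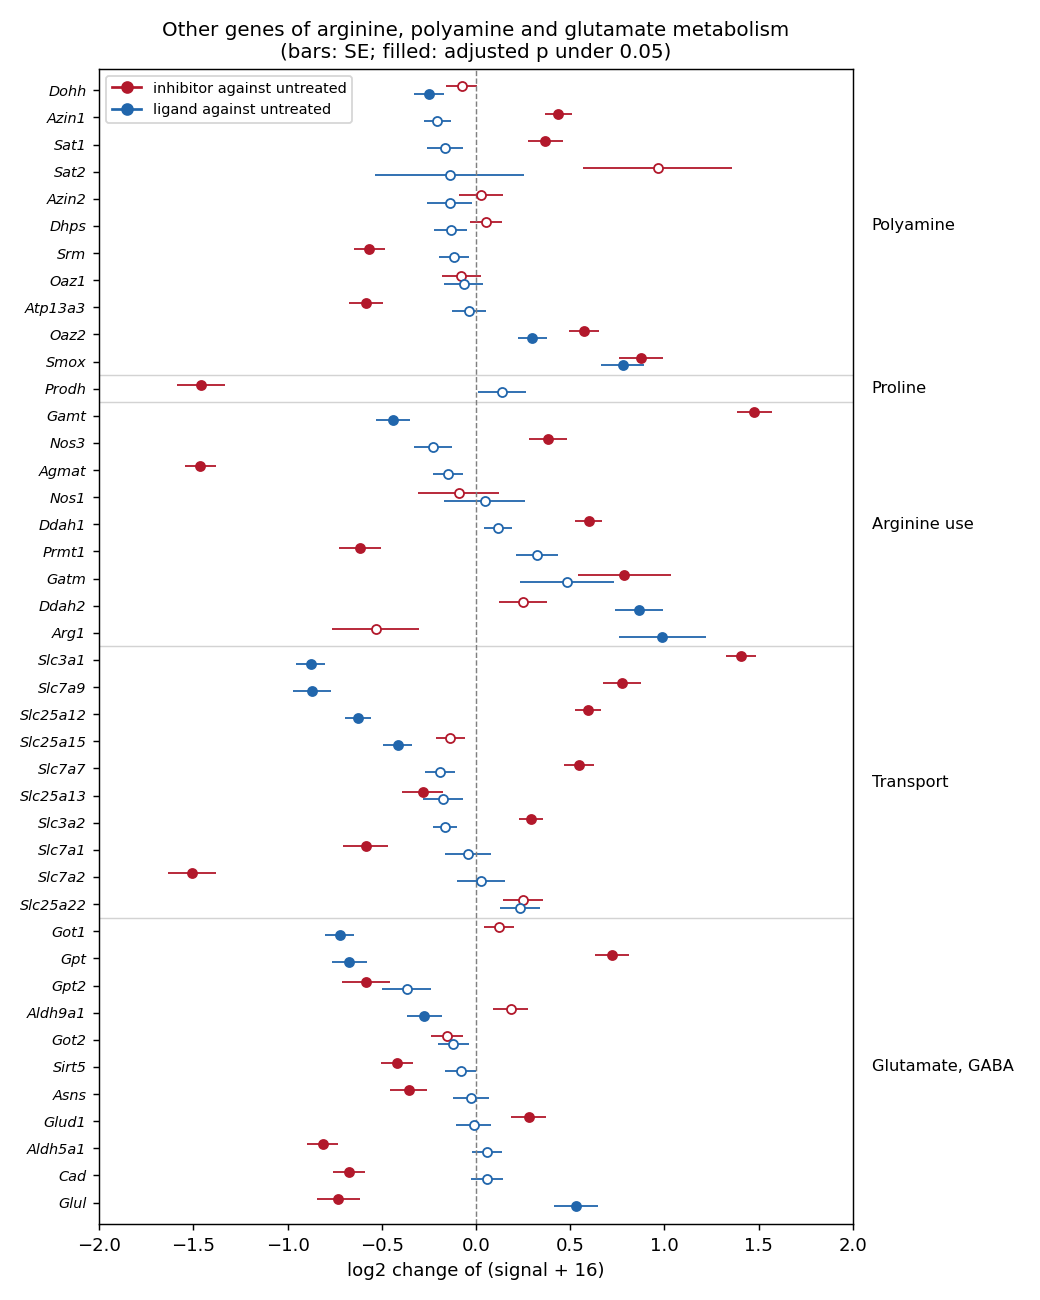
Log2 change of (signal + 16) ± SE of the tested genes of the 5 related lists, for inhibitor against untreated (red) and ligand against untreated (blue), filled where the adjusted p was under 0.05. Slc3a1 lies at 1.40 and -0.88, Slc7a2 at -1.51 and 0.03, and Smox at 0.88 and 0.78.

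The genes closest in pattern to Arg2, Cps1 and Abat, whose group means spanned over 1 on the log2 scale, were found by the root mean square difference of centred log2 values over the 9 arrays. For Arg2 these were the glucose transporter Slc2a2 (0.165), Abat (0.178) and the cytochrome P450 Cyp2d22 (0.180). For Abat they were the same Slc2a2 (0.170), Arg2 (0.178) and Cyp2d22 (0.189), so Arg2 and Abat were each other's second closest gene. The measure rests on the same 9 arrays as the changes above, so this closeness restates their similar changes and is not separate support. For Cps1 they were Mcm7 (0.0829), a subunit of the replication helicase, the non-coding RNA gene Gas5 (0.0872) and the RNA-binding protein gene Elavl2 (0.0928). Slc2a2 changed by -1.58 with the ligand and 0.18 with the inhibitor, and Mcm7 by 0.18 and -0.86.

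Markers of cell state changed under both treatments. Against untreated, Arg2, Abat, Otc and Nags were called only with the ligand, and Cps1 and Oat only with the inhibitor. Over all genes 9.37% fell and 14.8% rose with the ligand, and 23.9% fell and 21.2% rose with the inhibitor. Of 23 tested enterocyte markers 15 fell with the ligand and 1 (Lct, lactase) rose, with a median change of -0.48, and their summed signal was 78910 to 88100 in ligand arrays, against 109500 to 123300 in untreated arrays. With the inhibitor 13 of the 23 rose and 1 (Slc2a5, the fructose transporter) fell, with a median of 0.32 and a summed signal of 136700 to 158300. Of 18 tested stem cell and cell cycle markers 17 fell and 0 rose with the inhibitor (limma; 18 and 0 at an unadjusted p under 0.05), with a median of -0.91 and a summed signal of 25000 to 26560, against 50280 to 55910 untreated. Much of the fall in that sum came from Olfm4, which averaged 819 with the inhibitor and 12861 untreated. With the ligand 8 of the 18 rose and 1 (Rrm2) fell, a call lost without untreated replicate 2, untreated replicate 3, ligand replicate 1 or ligand replicate 3. In bulk RNA fewer cells of a type and less RNA per cell cannot be told apart, and the part of these shifts in the changes of Arg2, Abat, Otc, Nags, Cps1 and Oat was not tested.

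The arrays fitted their label as gut epithelium: Epcam was at 10240 to 12630 and Cdx2 at 1806 to 2439 on all arrays. Of 14 markers of other cells, Col1a1, Col3a1, Ptprc, Pecam1 and Cdh5 were under the filter level on all 9 arrays, and 8 were tested. Vim, Cd68, Acta2, Adgre1, Lyz2 and S100b were above it on all 9. With the inhibitor Vim (-1.11 ± 0.14, adjusted p 3e-05) and Lyz2 (-0.69 ± 0.14, adjusted p 0.0012) fell, and Cd68 (0.66 ± 0.15, adjusted p 0.0026) and S100b (0.58 ± 0.19, adjusted p 0.0224) rose. With the ligand Lyz2 rose by 0.41 ± 0.14 (adjusted p 0.0477), and the part of these markers in the changes of the 10 genes was not tested. The summed signal of all 14 was 1211 to 1373 with the inhibitor, 1993 to 2828 with the ligand and 1646 to 1856 untreated, most of it from Lyz2. Of the liver markers Alb was at 25.1 to 81.6, while Ttr was at 3348 to 4497. Ttr, G6pc and Tdo2 were above the filter level on all 9 arrays, and Tat and Fga on 0. With the inhibitor G6pc changed by 0.86 ± 0.15 (adjusted p 0.00036) and Alb by -0.66 ± 0.21 (adjusted p 0.0179). Array medians were signals of 46.1 to 57.9. The log2 ratio of 3 prime to 5 prime beta-actin control signal was 0.211 with the inhibitor, against 0.411 untreated and 0.468 with the ligand. Both comparisons with the inhibitor gave an exact permutation p of 0.1, 2-sided, the smallest that 3 against 3 arrays can give. In the same test ligand against untreated gave 0.6 for beta-actin. For the Gapdh control ratio the 3 comparisons gave 0.3 to 0.9. The part of the beta-actin difference in the changes was not tested.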

How the data were processed

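Intensities were read from the deposited value table of 9 Affymetrix Mouse Genome 430 2.0 arrays. Per the submitters' processing notes the authors summarised them with MAS5 (version not given in the sources used here), which leaves dim signals noisy, and the deposited intensity values share a trimmed mean of 350, so a difference in total RNA is removed. RNA was amplified and biotin-labelled with a kit for 3 prime arrays, per the labels. Of the probe sets, 34958 had 1 symbol in the array maker's annotation, 932 had several and 9211 had none, and the 64 control probe sets were left out. Signals were turned into log2(signal + 16), which understates changes of dim genes. Probe sets above their array's 40th percentile on at least 3 arrays were kept. A gene was its brightest such probe set, with _x_at sets used only where there was no other. One limma 3.58.1 model (R 4.3.3) with a mean per group and 6 residual degrees of freedom was fitted to all 12941 genes, and another to 23888 probe sets, with an intensity trend, 2-sided p-values and a Benjamini-Hochberg threshold of 0.05 over everything tested. Intervals are at 95%. The pipeline was tested on simulated data.

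All 10 genes are named. From each related list up to 4 called genes with the smallest p per comparison were named, and those named beyond this, such as Slc7a7, Slc3a2, Slc7a1, Slc25a13, Nos3, Gatm, Glud1, Lct, Slc2a5 and Rrm2, were chosen after their values were seen. The members and lists were chosen with earlier results of these data known. The alternatives were an offset of 1 or 64, no filter or one at the 60th percentile, quantile normalization, median centring, a replicate block, only the 2 groups compared, no intensity trend, the mean of a gene's probe sets, and leaving out each of the 9 arrays.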

Additional observations from a re-analysis of the deposited data

How the results depend on the processing

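The 14 calls of the 10 genes over the 3 comparisons (3 with the inhibitor and 4 with the ligand against untreated, 7 between the treatments) kept direction and call under all 19 alternatives, 266 values in all. Of the 301 values of the 16 uncalled results, 4 became called: Arg2 for inhibitor against untreated without untreated replicate 3 (-0.28, adjusted p 0.0156), Odc1 with quantile normalization for inhibitor against untreated (-0.16, 0.0347) and ligand against inhibitor (0.15, 0.044), and Aldh18a1 for ligand against inhibitor with median centring (-0.27, 0.0298). Another 22 turned sign without a call. Median centring shifted every gene by 0.07 in the inhibitor comparison, -0.09 in the ligand comparison and -0.16 between the treatments. With it the inhibitor changes were 0.0029 for Otc, 0.024 for Nags and 0.0075 for Aldh18a1, the ligand changes -0.0085 for Cps1 and -0.068 for Asl, and ligand against inhibitor -0.072 for Ass1 and -0.11 for Odc1. Quantile normalization gave Nags 0.0024 with the inhibitor, Asl -0.0062 with the ligand and Ass1 -0.043 for ligand against inhibitor, and the mean of probe sets gave Odc1 -0.039 there. Leaving out 1 array gave ranges of -0.090 to 0.033 for Nags and -0.16 to 0.11 for Abat with the inhibitor, -0.057 to 0.17 for Cps1, -0.089 to 0.036 for Oat and -0.054 to 0.092 for Asl with the ligand, and -0.030 to 0.26 for Ass1 for ligand against inhibitor. The cause of these turns was not tested. Deviations of same-numbered arrays correlated at -0.081 to 0.0749, against -0.0815 to 0.088 for arrays of different numbers. The own number correlated best in 7 of 18 cases. No variation shared by replicate number was thus seen, but with 3 arrays in each group this cannot say whether cultures were paired. With the replicate block 3, 4 and 7 of the 10 genes were called, as without it, and 3007 of all genes for ligand against untreated, against 3123. The number of arrays and, for Ass1, a signal close to the filter level limit the precision.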
